A study of Mus musculus with 32 samples.

Results

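Solute carriers are the membrane proteins that move sugars, amino acids, ions, metals, nucleotides, lipids and vitamins across the plasma membrane and the membranes of organelles, mostly as exchangers, co-transporters or facilitated carriers. They are named Slc followed by a family number, and a family groups carriers of related sequence. In embryonic stem cells they feed glycolysis, supply amino acids and hold the pH of a rapidly dividing cell. The solute carrier transcripts described here are all entries of the authors' deposited table of changed chromatin RNA whose gene name, after any class prefix, begins with Slc and a digit. They number 120 of the 5723 listed transcripts and carry 77 of 3470 gene names. Of the 77 names, 76 belong to coding genes, and Slc6a19os is an antisense RNA gene.

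The groups were wild-type (WT) mouse embryonic stem cells and H1-TKO cells, embryonic stem cells labelled as a triple knockout of histone H1, the linker histone that binds DNA at the nucleosome's entry and exit. Both were grown in DMEM with serum and LIF. Chromatin-enriched RNA (cheRNA), the RNA left in the insoluble chromatin pellet after extraction of nuclei with urea and detergent, was read with a stranded kit in 3 samples of each genotype. MapR, in which an RNase H fused to micrococcal nuclease (RNH) releases DNA at RNA-DNA hybrids, was run in 2 RNH libraries per genotype, with 1 library per genotype made with the nuclease alone (MNase only). The labels do not say whether replicates came from separate cultures, or how many clones the H1-TKO line represents. The authors' deposited table gives 1 log2 fold change per transcript and no value per sample, no error and no p-value, so the cheRNA differences below are described and not tested. It holds only transcripts with an absolute log2 fold change of at least 1, a 2.00-fold difference. A gene that is not listed may be unchanged or not detected, and these cannot be told apart. All log2 fold changes below are taken from that table and given as TKO over WT. The table does not state its direction: the 3 deleted H1 genes were positive as deposited, and every value was therefore multiplied by -1. None of the 8 stem cell marker genes looked up (among them Pou5f1 and Nanog) had a listed gene transcript, and their levels are not in the table.

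The promoters of 5 carriers that are named again in the results on RNA-DNA hybrids are shown first. Slc44a1, Slc1a4 and Slc25a4 combine a listed gene transcript with a promoter region found in both TKO replicates. Slc15a1 also has a listed gene transcript and such a region that reaches its promoter, but no RefSeq window held here overlaps that region, so none is shown. Slc22a5 has the highest promoter enrichment found in both WT replicates. Slc2a1, the main glucose carrier of the cell surface, was added after its values were seen. Each sequence runs 5′ to 3′ on the gene's strand from 250 bases before to 50 bases after the RefSeq start (GRCm38.p6), and capitals mark runs of at least 4 G or 4 C. The windows lie at chr4:53440163-53440462 on the plus strand (Slc44a1), chr11:20332664-20332963 on the minus strand (Slc1a4), chr8:46211013-46211312 on the minus strand (Slc25a4), chr11:53891654-53891953 on the minus strand (Slc22a5) and chr4:119108495-119108794 on the plus strand (Slc2a1).
Slc44a1: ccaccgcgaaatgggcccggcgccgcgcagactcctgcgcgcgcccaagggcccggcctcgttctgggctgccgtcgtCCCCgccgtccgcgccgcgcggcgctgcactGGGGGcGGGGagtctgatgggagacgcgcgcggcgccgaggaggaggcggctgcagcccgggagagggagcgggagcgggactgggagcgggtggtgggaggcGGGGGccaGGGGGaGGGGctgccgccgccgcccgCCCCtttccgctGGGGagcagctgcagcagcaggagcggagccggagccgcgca
Slc1a4: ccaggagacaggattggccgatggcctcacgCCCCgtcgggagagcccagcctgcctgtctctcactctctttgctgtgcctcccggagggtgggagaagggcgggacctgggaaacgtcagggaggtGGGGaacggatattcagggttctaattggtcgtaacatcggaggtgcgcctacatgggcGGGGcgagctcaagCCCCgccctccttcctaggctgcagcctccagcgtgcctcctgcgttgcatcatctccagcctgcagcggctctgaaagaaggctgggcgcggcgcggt
Slc25a4: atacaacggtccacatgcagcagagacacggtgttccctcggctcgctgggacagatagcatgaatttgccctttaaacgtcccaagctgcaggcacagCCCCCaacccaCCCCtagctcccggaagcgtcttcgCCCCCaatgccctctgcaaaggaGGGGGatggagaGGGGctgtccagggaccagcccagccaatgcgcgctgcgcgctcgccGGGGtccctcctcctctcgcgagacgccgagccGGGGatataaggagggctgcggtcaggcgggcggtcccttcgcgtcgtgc
Slc22a5: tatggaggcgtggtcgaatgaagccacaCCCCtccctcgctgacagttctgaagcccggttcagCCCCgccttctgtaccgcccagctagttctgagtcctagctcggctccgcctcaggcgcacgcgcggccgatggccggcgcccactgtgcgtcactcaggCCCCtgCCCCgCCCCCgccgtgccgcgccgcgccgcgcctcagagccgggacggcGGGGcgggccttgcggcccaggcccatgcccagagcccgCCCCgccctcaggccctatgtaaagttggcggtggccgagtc
Slc2a1: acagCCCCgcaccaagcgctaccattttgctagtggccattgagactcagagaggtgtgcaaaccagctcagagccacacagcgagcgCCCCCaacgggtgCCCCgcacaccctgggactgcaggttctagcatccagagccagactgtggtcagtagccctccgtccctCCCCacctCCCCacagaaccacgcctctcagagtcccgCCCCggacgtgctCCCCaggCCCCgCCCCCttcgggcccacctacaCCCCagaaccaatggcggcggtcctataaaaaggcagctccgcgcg
The Slc44a1 window is 79.7% G or C with 43 CpG sites, above the 72.7% and 34 sites of Slc22a5 and the 65.0% and 21 sites of Slc1a4. The windows of Slc25a4 and Slc2a1 are 65.7% and 65.3% G or C, with 25 and 18 CpG sites. Runs of at least 4 G or 4 C number 10 in Slc2a1, 8 in Slc44a1 and 4 in Slc1a4.

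The listed transcripts split by where they lie. Under the authors' naming, gene transcripts carry the plain gene name, intergenic transcripts the name of an associated gene, antisense transcripts the name of the gene they run against, and 5′-side and bidirectional transcripts the name of the gene whose start they adjoin. Of the 120 solute carrier transcripts, 72 (60.0%) were higher in TKO, against 60.1% of all listed transcripts. The 63 gene transcripts were more often lower: 23 (36.5%) were higher and 40 lower, beside 45.0% higher among all listed gene transcripts. The 13 pieces of a single gene, Slc4a4, were all lower. Without them 23 of 50 gene transcripts (46.0%) were higher, which lies next to the background. Intergenic transcripts went the other way, with 35 of 40 (87.5%) higher beside 74.0% of all intergenic transcripts. All 7 antisense transcripts were higher (100% beside 86.6%), as were 4 of 6 5′-side transcripts (66.7% beside 66.4%) and 3 of 4 bidirectional transcripts (75.0% beside 85.4%). In size the carriers resembled the whole table, with a median absolute log2 fold change of 1.96 beside 2.03, and 49.2% changed at least 4-fold beside 50.8%.

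**Figure D1:**
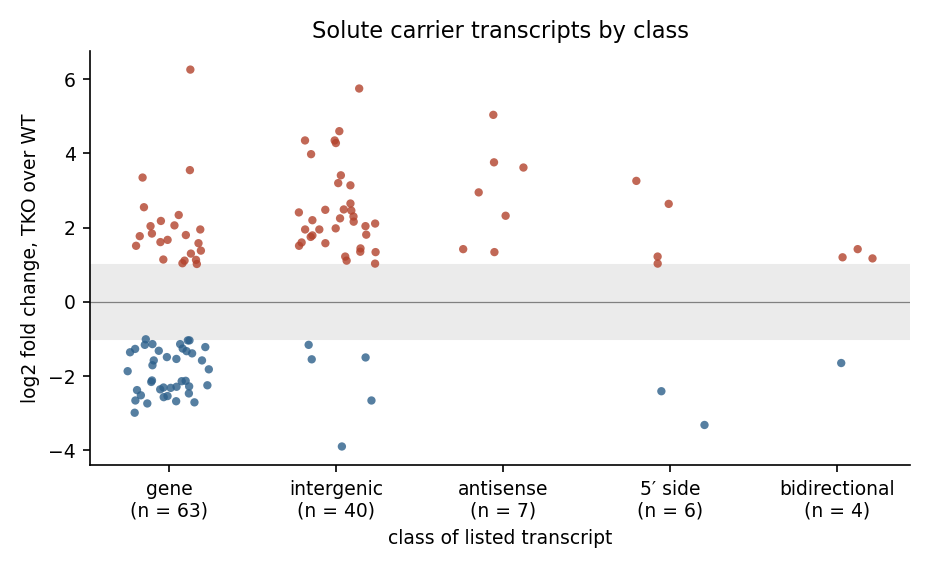
Log2 fold change (TKO over WT, vertical axis) of the 120 solute carrier transcripts in the authors' deposited table, by class; each point is 1 transcript, red higher and blue lower in TKO, and the grey band from -1 to 1 holds no listed transcript. Gene transcripts fall on both sides, whereas 35 of 40 intergenic and 7 of 7 antisense transcripts lie above the band.

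Seen by gene, 46 of the 371 annotated coding solute carrier genes had a listed gene transcript (12.4%, beside 8.91% of all 21924 coding genes). Higher gene transcripts belonged to 21 carriers (5.66%, beside 4.11% of all coding genes) and lower ones to 25 (6.74%, beside 4.77%). The annotated set includes Slc9a3r1 and Slc9a3r2, which are regulatory scaffold proteins named after a carrier. It also includes Slc4a1ap and Slc7a6os, whose names add a suffix to that of a carrier. All of these are counted in the role of the family in their name. The other 31 listed names had transcripts of other classes only. Most names had 1 listed transcript (55 of 77), and 7 had at least 3. Of the 77 names, 49 had only higher transcripts, 27 only lower ones, and Slc44a1 alone had both. Where a name had both a gene transcript and another class, 10 of 11 went one way.

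Every listed transcript of the sugar carrier families was higher in TKO. Roles were assigned by family, and the 30 annotated genes of the Slc2, Slc5, Slc45 and Slc50 families include some Slc5 members that carry other solutes, such as the vitamin carrier Slc5a6. Of these 30 genes, 7 had a listed gene transcript (23.3%, beside 8.91% of all coding genes), all 7 higher. All 13 listed transcripts of any class were higher, beside 60.1% of all listed transcripts. In the authors' deposited table the largest was Slc5a4b, a sodium-coupled sugar carrier family member, at a log2 fold change of 3.55. Its gene transcript is a piece of 4.46 kb that covers 8.33% of the gene, and a 5′-side transcript stood at 3.26. Slc2a6, a glucose carrier of the GLUT family whose gene transcript covers 98.0% of the gene, stood at 2.34 in the authors' deposited table. Slc45a1, a proton-linked sugar carrier, stood at 2.18 for the gene and 2.25 for an intergenic transcript 23.5 kb upstream. The fructose carrier Slc2a5 stood at 1.30 and its neighbour Slc2a7, 4.80 kb away, at 1.77 in the authors' deposited table. For Slc5a1, the intestinal sodium-glucose co-transporter, 2 pieces stood at 1.58 and 1.51, and the first overlaps no annotated exon. Slc5a10 stood at 1.80, with an intergenic transcript on its strand at 2.65 that reaches into the gene. Slc2a1 itself had no listed gene transcript. The authors' deposited table lists for it 2 intergenic transcripts on the opposite strand, at 1.51 (35.5 kb upstream) and 1.35 (over the gene's end). These values cover parts of genes that differ in extent, so they compare pieces and not whole messages. Of the 7 genes, Slc2a5, Slc2a7 and Slc45a1 lie within 500 kb of each other on chromosome 4.

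Amino acid carriers were listed in both directions. Of 65 genes, 4 had higher and 7 had lower gene transcripts (16.9% listed, beside 8.91% of all coding genes). Over all coding genes 4.11% had higher and 4.77% lower gene transcripts. Higher in the authors' deposited table were Slc7a9 at a log2 fold change of 2.55, Slc43a1 at 1.95, Slc1a4 at 1.84 and Slc6a7 at 1.67. Slc7a9 encodes the light chain of the cystine carrier, Slc43a1 a carrier of large neutral amino acids, Slc1a4 a neutral amino acid exchanger and Slc6a7 a proline carrier. The lower ones included the glutamate carriers Slc1a1, in 2 pieces at -2.12 and -2.31, and Slc1a3 at -1.54 in the authors' deposited table. The taurine carrier Slc6a6 stood at -1.36 and the creatine carrier Slc6a8 at -1.22. Slc7a7, a light chain of a cationic amino acid exchanger, stood at -1.14 and the cationic amino acid carrier Slc7a2 at -1.04 in the authors' deposited table. The Slc1 family therefore held both directions, with Slc1a4 higher and Slc1a1 and Slc1a3 lower. Transcripts of other classes named for amino acid carriers were higher in 9 of 10 cases, beside 86.0% of all carrier transcripts of these classes and 75.6% of all such listed transcripts. Slc1a4 had 3 intergenic transcripts in the authors' deposited table, at 4.60 (48.0 kb upstream on its strand), 3.98 (19.4 kb downstream, opposite strand) and 2.20 (across its start, opposite strand). Its own gene transcript had the smallest value of the 4. Slc38a4, a system A amino acid carrier with no listed gene transcript, had intergenic transcripts at 4.35, 4.28 and 1.58, the nearest 12.3 kb and the farthest 70.6 kb upstream.

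Gene transcripts of carriers of protons, bicarbonate and other anions were mostly lower. Of 36 genes, 6 had lower and 1 had a higher gene transcript (19.4% listed, beside 8.91% of all coding genes). Over all coding genes 4.77% had lower and 4.11% higher gene transcripts. The 3 transcripts of other classes were all higher, beside 75.6% of all such listed transcripts. Slc4a4, the electrogenic sodium-bicarbonate co-transporter, spans 353 kb of chromosome 5 (chr5:88886818-89239653, plus strand) and was listed in 13 pieces. Together the pieces cover 72.4% of the gene. Their log2 fold changes in the authors' deposited table ran from -2.74 to -1.32 with a median of -2.38. The piece at the gene start stood at -2.25 and that at the gene end at -1.32, the smallest change of the 13, and the 11 pieces between them ran from -2.74 to -2.13. Of the 13 pieces, 10 overlap an annotated exon and 3 do not. By number of pieces Slc4a4 shared rank 5 with other genes: 8 genes, Slc4a4 included, had as many or more, and the maximum was 22. The pieces are parts of 1 gene and count as 1 gene wherever genes are counted.

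Beside Slc4a4, the sodium-proton exchanger Slc9a7 of the Golgi region stood at -2.71 in the authors' deposited table, over 203 kb. Slc4a10 stood at -2.14 in a piece of 4.53 kb that covers 1.61% of the gene. The mitochondrial and membrane exchanger Slc9b2 had 2 pieces at -1.87 and -1.04, and Slc4a9 and the anion exchanger Slc4a2 stood at -1.71 and -1.01 in the authors' deposited table. Slc4a5, another sodium-bicarbonate co-transporter, was the exception among the gene transcripts at 3.35, in a piece that covers 32.3% of the gene at its 3′ side. Slc4a1, the anion exchanger of red blood cells, had no listed gene transcript, and its 2 intergenic transcripts stood at 3.14 and 1.44. An intergenic transcript 33.6 kb downstream of Slc4a3 stood at 2.46 in the authors' deposited table.

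**Figure D2:**
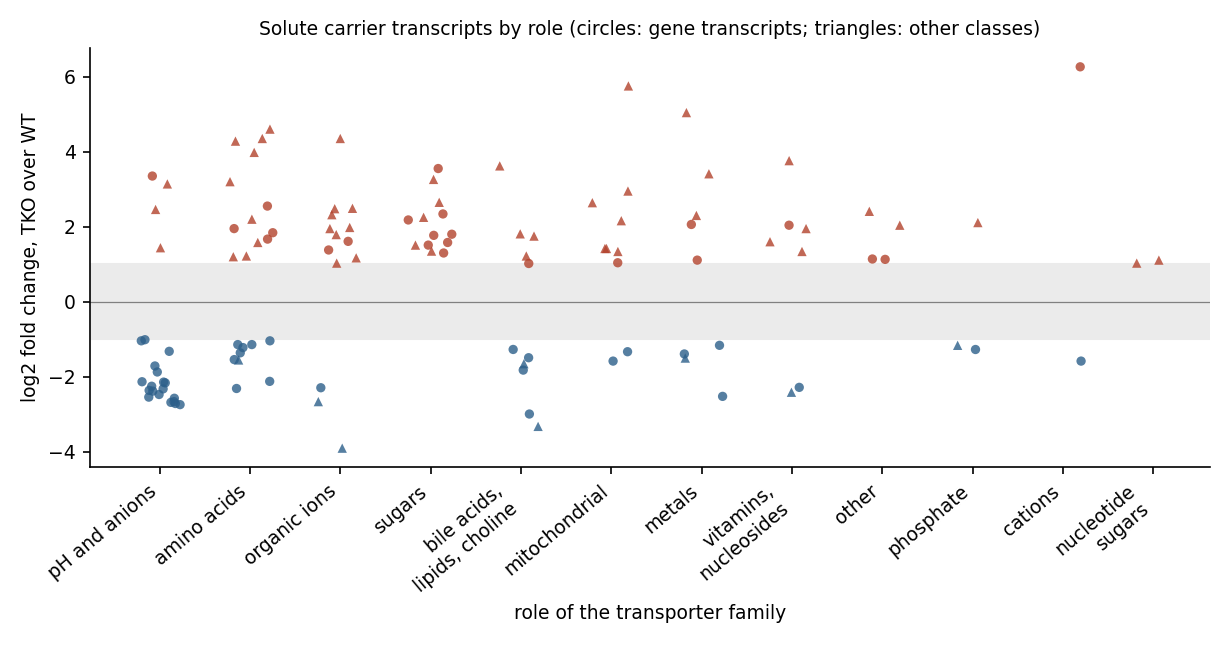
Log2 fold change (TKO over WT, vertical axis) of the 120 solute carrier transcripts in the authors' deposited table, by role of the carrier family; circles are gene transcripts, triangles other classes, and the grey band from -1 to 1 holds no listed transcript. All 13 sugar carrier transcripts lie above the band, and 19 of 23 transcripts of the pH and anion carriers lie below it, 13 of them from Slc4a4.

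Choline-like carriers of the Slc44 family had 4 of 5 genes listed, 1 higher and 3 lower, beside 8.91% of all coding genes listed. Slc44a1, a choline carrier of the plasma membrane and mitochondria, was lower along 94.9% of its 182 kb. Its first piece, 167 kb from the gene start, stood at -1.82 and its second, at the gene end, at -2.99 in the authors' deposited table. The 5′-side transcript ending at the start stood at -3.32, and the bidirectional transcript leaving the start on the other strand at -1.65. Only an intergenic transcript 79.6 kb upstream was higher, at 1.81, which made Slc44a1 the carrier with both directions. Slc44a2, a choline carrier of mitochondria and platelets, stood at -1.49 and Slc44a4, a thiamine pyrophosphate carrier, at -1.27 in the authors' deposited table. Slc44a3 went the other way, with 1.02 for the gene, 3.62 for an antisense transcript inside it and 1.75 for an intergenic transcript 15.1 kb upstream.

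**Figure D3:**
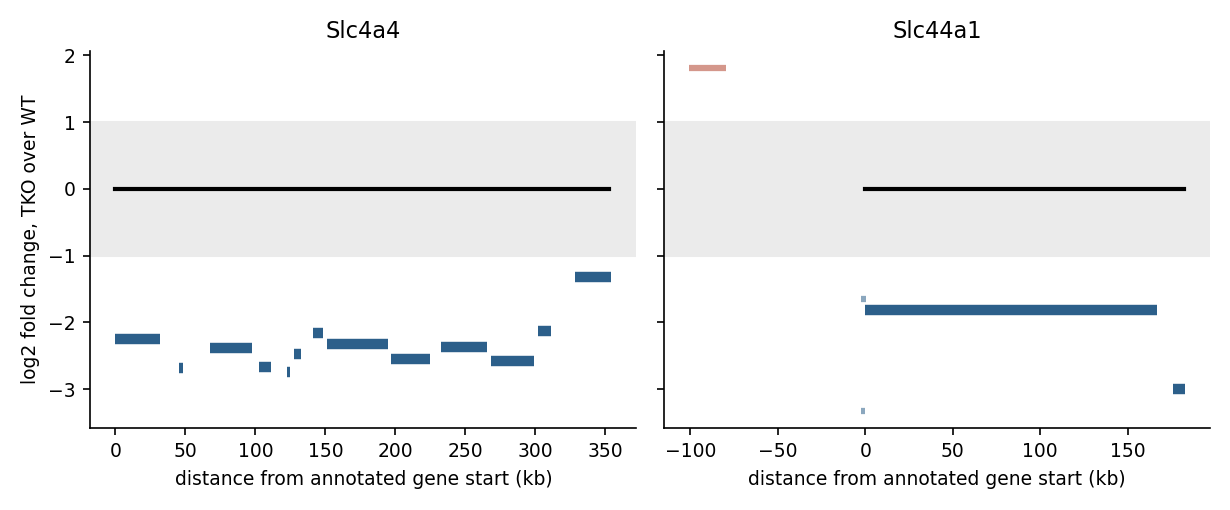
Listed transcripts of Slc4a4 and Slc44a1 by distance from the annotated gene start (kb, horizontal axis) and log2 fold change (TKO over WT, vertical axis); thick bars are gene transcripts, thin pale bars other classes, the black line the annotated gene, and the grey band from -1 to 1 holds no listed transcript. The 13 pieces of Slc4a4 lie between -2.74 and -1.32, and the intergenic transcript of Slc44a1 at 1.81 is the only bar above the band.

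Among 32 metal carriers 2 genes were higher and 3 lower (15.6% listed, beside 8.91% of all coding genes). Slc40a1 (ferroportin), the iron exporter, stood at -2.52, the zinc importer Slc39a4 at -1.39 and Slc39a14, which imports zinc, manganese and iron, at -1.16 in the authors' deposited table. The zinc carrier of synaptic vesicles, Slc30a3, stood at 1.11. Slc41a2, a magnesium carrier, stood at 2.06 in a piece of 6.89 kb inside an intron, with an intergenic transcript 5.18 kb upstream on the opposite strand at 3.41. An antisense transcript of 3.08 kb within Slc39a11, a zinc carrier of intracellular membranes, stood at 5.04 in the authors' deposited table.

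Mitochondrial carriers (Slc25) were listed mainly through other classes. Of 47 genes, 3 had a gene transcript (6.38%, beside 8.91% of all coding genes). They were Slc25a4, the ADP/ATP exchanger, at 1.04, the S-adenosylmethionine carrier Slc25a26 at -1.58 and the pyrimidine nucleotide carrier Slc25a36 at -1.33 in the authors' deposited table. All 7 transcripts of other classes were higher, beside 86.0% of all carrier transcripts of these classes and 75.6% of all such listed transcripts. The largest lay 20.7 kb downstream of Slc25a28, the iron importer mitoferrin-2, with a log2 fold change of 5.75 over 515 bp. Slc25a33, a pyrimidine nucleotide carrier, had an antisense transcript at 1.42 and a 5′-side transcript at 2.64.

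Of 59 organic ion carriers, 3 had a listed gene transcript (5.08%, beside 8.91% of all coding genes). Higher were those of the lactate exporter Slc16a3 (1.38) and of Slc16a9 (1.61), and lower that of the citrate carrier Slc13a5 (-2.29), in the authors' deposited table. The 25 Slc22 genes, carriers of organic cations and anions, had no listed gene transcript, beside 8.91% of all coding genes listed. The 6 intergenic transcripts with their names, from Slc22a12 and Slc22a5 only, were all higher, beside 74.0% of all intergenic transcripts. Of these, 4 carried the name of the urate carrier Slc22a12 at 4.35, 2.48, 1.98 and 1.95 in the authors' deposited table. They lie 102 to 131 kb from it on both strands, over no coding gene. Those named for Slc22a5, at 2.49 and 1.79, lie over the coding gene Gm12216 on the same strand. For the vesicular monoamine carrier Slc18a1, 2 intergenic transcripts 24.9 and 9.91 kb downstream on its strand stood at -3.90 and -2.66, and the first was the lowest of all solute carrier transcripts.

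The remaining roles held few genes. Slc24a5, a potassium-dependent sodium-calcium exchanger of pigment cell organelles, had the highest value of all carriers, 6.26 in the authors' deposited table, rank 7 of 2904 gene transcripts. Its listed piece of 3.17 kb begins 4.21 kb inside the gene and overlaps no annotated exon, so it is intronic RNA on the gene's strand. The potassium-chloride co-transporter Slc12a4 stood at -1.58. Slc23a1, a vitamin C carrier, stood at -2.28 for the gene and -2.41 for the 5′-side transcript directly before it in the authors' deposited table. Slc46a3, a lysosomal carrier, stood at 2.04 and the phosphate carrier Slc20a1 at -1.26. The peptide carrier Slc15a1 had 2 gene pieces at 1.13 and 1.14 and an intergenic transcript 12.3 kb downstream at 2.41 in the authors' deposited table. The 27 nucleotide sugar carriers (Slc35) had no listed gene transcript, beside 8.91% of all coding genes listed. Their 2 transcripts of other classes were higher, beside 75.6% of all such listed transcripts. The transcript named for Slc6a19os, at -1.55, lies over Slc12a7 on the same strand, 23.2 kb from the gene it is named for.

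Intergenic names are loose. Of the 40 intergenic transcripts, 7 overlap the gene they are named for, 19 lie upstream and 14 downstream, and 31 lie within 50 kb. The median distance of those apart was 23.2 kb and the largest 1661 kb, for Slc39a10. On the strand of the named gene 19 were higher and 3 lower, and on the other strand 16 were higher and 2 lower, so the excess of higher transcripts was present on both strands. Coding genes on the same strand underlie 6 of the 40, and no coding gene underlies 29. All 63 gene transcripts overlap the named gene on its strand, and 57 of them contain at least part of an exon.

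The chromosome and the neighbourhood were set beside the values. On chromosome 11, 15 of 16 solute carrier transcripts were higher, beside 88.4% of all listed transcripts there. Leaving that chromosome out gave 54.8% higher among carriers and 57.1% among all. On chromosome 5, 14 of 18 were lower, 13 of them Slc4a4, whereas 62.1% of all listed transcripts there were higher. Of the 120 transcripts, 49 (40.8%) had a listed transcript named for another gene within 100 kb, beside 37.6% of all listed transcripts. Of 82 such neighbours 59 (72.0%) had the same direction, beside 83.7% over the whole table. Within 500 kb of each other lay 7 pairs of listed carriers, all higher on both sides, and 5 of the 7 join Slc25a33, Slc2a5, Slc2a7 and Slc45a1 on chromosome 4. The part of the surrounding region in any single gene's value was not tested.

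Other transporter genes gave a frame. Of 53 carriers named outside the Slc scheme, 3 were higher and 1 lower (7.55% listed, beside 8.91% of all coding genes). The prostaglandin carrier Slco2a1 was lower in 5 pieces from -3.57 to -2.52 in the authors' deposited table. Of 50 ABC transporter genes, 2 were higher and 4 lower (6 of 50 listed, beside 8.91% of all coding genes). The higher ones were Abcc2, an exporter of conjugated organic anions, at 6.19 and Abca8b at 1.30 in the authors' deposited table. The lower ones were the cholesterol exporter Abca1 at -2.04 and the drug exporters Abcb1a at -1.55, Abcg2 at -1.49 and Abcb1b at -1.48.

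RNA-DNA hybrids at carrier promoters were counted as RNH peaks within 1 kb of an annotated transcription start, after removal of peaks that meet an MNase-only peak. In WT replicate 1, 186 of 371 carriers had a promoter peak (50.1%, beside 45.0% of all coding genes). WT replicate 2 gave 45 (12.1%, beside 11.4%), TKO replicate 1 gave 198 (53.4%, beside 50.1%) and TKO replicate 2 gave 56 (15.1%, beside 14.5%). The share was thus slightly above the background in each library and slightly higher in TKO than in WT for each replicate number. The spread between replicates far exceeded that between genotypes, and moved with the length of the lists, 22336 and 25392 deposited peaks in replicate 1 and 6612 and 6458 in replicate 2. With every list cut to 6010 peaks, 61 and 44 carriers had a promoter peak in the WT replicates and 61 and 56 in the TKO replicates, so replicate 1 was tied between genotypes and the replicates lay closer together. With 2 libraries against 2, no exact permutation test can give a two-sided p below 0.333, so none was run. No carrier promoter met an MNase-only peak in either genotype, whose lists hold 568 and 582 peaks. Read depth is unknown, and precision is limited by the number of libraries.

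**Figure D4:**
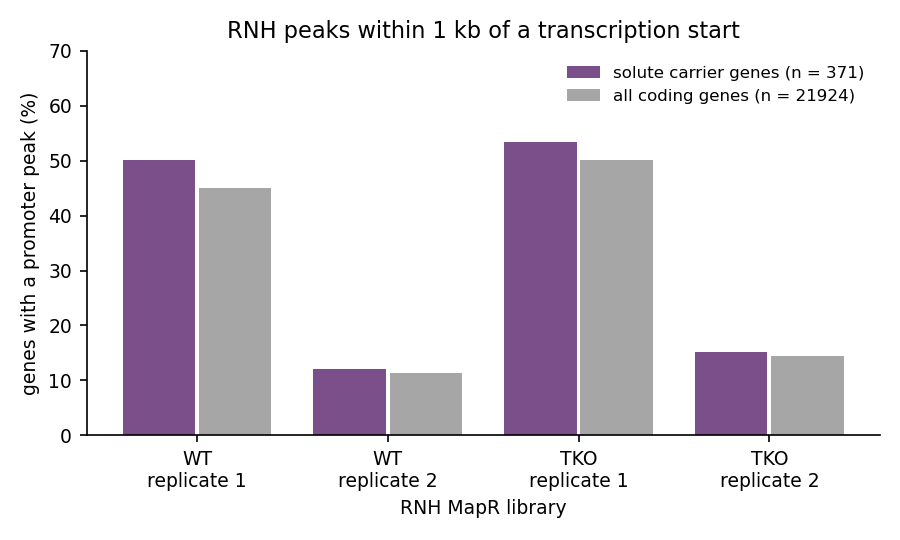
Share of genes with an RNH peak within 1 kb of an annotated transcription start (%, vertical axis) in each of the 4 RNH libraries, for 371 solute carrier genes and 21924 coding genes; each bar is 1 library, with no error bar. Replicate 1 of both genotypes stands at 45.0% to 53.4% and replicate 2 at 11.4% to 15.1%.

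Carriers ranged from no peak to a peak in every library. A promoter peak was present in none of the 4 libraries for 145 carriers (39.1%, beside 43.7% of all coding genes) and in all 4 for 24 (6.47%, beside 6.58%). It was present in 1 library for 55 carriers (14.8%, beside 14.7%), in 2 for 107 (28.8%, beside 25.2%) and in 3 for 40 (10.8%, beside 9.85%). The fold enrichments are the authors' values, with a median over carrier promoters of 3.75 and 4.07 in WT and 3.73 and 4.40 in TKO. The highest were those of the zinc importer Slc39a10 in WT replicate 1 (7.10), the carnitine carrier Slc22a5 in WT replicate 2 (6.61) and TKO replicate 1 (6.78), and the sodium-calcium exchanger Slc8a2 in TKO replicate 2 (6.57).

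Another measure asked for a region supported by overlapping peaks of both replicates, and took in the gene body as well as the promoter. It was met by 47 carriers in WT (12.7%, beside 12.1% of all coding genes). In TKO it was met by 55 carriers (14.8%, beside 14.0%). Of these carriers, 24 had one in both genotypes, 23 in WT and not in TKO, and 31 in TKO and not in WT. Over all 21924 coding genes the same counts were 1543, 1111 and 1522. Most of the difference between genotypes was in whether a region met the criterion in both replicates. Of the 56 TKO regions, 51 met at least 1 WT peak, and of the 48 WT regions, 45 met at least 1 TKO peak. At promoters alone, 38 carriers had a shared region in WT (10.2%, beside 10.1% of all coding genes) and 45 in TKO (12.1%, beside 12.2%).

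By the smaller of the 2 replicate enrichments, the strongest WT promoter region was that of Slc22a5 (chr11:53891150-53892300, mm10), at 6.49 and 6.61 in the WT replicates and 6.78 and 4.58 in TKO. The whole window printed above lies inside it. The carrier of coenzyme A, Slc25a42, followed with 5.58 and 6.41 in WT and 4.59 and 6.14 in TKO. Slc35e2 (5.55 as the smaller value), the nucleotide sugar carrier relative Slc35f4 (5.27) and the zinc carriers Slc39a3 (4.64) and Slc30a7 (4.49) completed the WT order. In TKO the strongest were the mitochondrial outer membrane protein Slc25a46 (5.66), Slc18a1 (5.28), the multivitamin carrier Slc5a6 (5.08), the magnesium carrier Slc41a1 (5.07), Slc25a28 (4.94) and Slc35f5 (4.60). At Slc18a1 the WT lists gave 4.17 and 3.54 and the TKO lists 5.53 and 5.28. The Slc41a1 values were 3.92 and 3.26 in WT and 5.07 and 5.88 in TKO, and those of Slc25a28 were 5.72 and 4.16 in WT and 4.94 and 5.40 in TKO. Each list was called separately, so these values are set side by side and not compared. None of these 12 carriers had a listed gene transcript, although Slc18a1, Slc22a5 and Slc25a28 are named by intergenic ones.

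Of the 46 carriers with a listed gene transcript, 6 also had a shared region. In TKO these were 4 of the 21 higher carriers (19.0%, beside 14.3% of all coding genes with higher transcripts) and 2 of the 25 lower ones (8.00%, beside 126 of 1046 coding genes with lower transcripts). In WT 1 of the 21 higher carriers had a region (4.76%, beside 8.65%), and 0 of the 25 lower ones, beside 167 of 1046. At Slc44a1 the TKO region (chr4:53440045-53441349) stood at 3.89 and 4.04, and neither WT library had a peak there, while its gene transcripts were lower in TKO. The region contains the whole printed window with its 8 runs of G or C. At Slc1a1 a TKO region in the gene body (3.66 and 4.97) likewise met no WT peak, and the gene's transcripts were also lower. For Slc1a4, whose transcript was higher, the promoter stood at 5.09 and 4.01 in TKO and at 3.75 in WT replicate 1, with no peak in WT replicate 2. In WT, Slc1a4 had instead 2 shared regions inside the gene, and both meet a TKO peak. The Slc25a4 promoter stood at 3.22 and 4.17 in TKO and at 3.83 in WT replicate 1 only. Slc15a1 (3.17 and 4.99, reaching the promoter) and Slc5a10 (3.79 and 4.23, in the gene body) had TKO regions that met a WT peak. Slc2a1, without a listed gene transcript, stood at 3.55 and 5.56 in TKO and at 3.27 in WT replicate 1, with no peak in WT replicate 2.

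Promoter peaks of listed carriers were split by the direction of the gene transcript, first in the longer lists of replicate 1. Among the 21 carriers with higher gene transcripts, 8 had a promoter peak in both genotypes, 5 in TKO only and 0 in WT only. The 5 were Slc2a5, Slc2a6, Slc5a1, Slc6a7 and Slc7a9, with TKO enrichments of 2.94, 3.75, 2.91, 2.85 and 3.44 in that order. Of the 5, 3 are sugar carriers. Among the 25 carriers with lower gene transcripts, 11 had a peak in both genotypes, 6 in WT only and 1 in TKO only. The 6 were Slc1a1 (3.72), Slc25a26 (4.00), Slc39a4 (2.80), Slc4a9 (3.38), Slc6a6 (3.79) and Slc7a7 (3.37), and the TKO-only gene was Slc44a1. The same counts over all coding genes gave a background: of genes with higher transcripts 20.0% had a TKO-only and 6.98% a WT-only peak, and of genes with lower transcripts 14.5% and 11.8%. For the carriers the shares were 23.8% and 0% with higher transcripts, and 4.00% and 24.0% with lower ones. Among 325 carriers not listed, 30 (9.23%) had a TKO-only and 18 (5.54%) a WT-only peak, beside 9.92% and 5.07% of all coding genes not listed. The shorter lists of replicate 2 hold few of these genes. There Slc1a4 and Slc25a4 were TKO-only among higher carriers, Slc6a6 was WT-only and Slc44a1 TKO-only among lower ones. Only Slc6a6 and Slc44a1 therefore showed the same 1-genotype pattern in both replicates. The 2 WT peaks at the Slc6a6 promoter (3.79 and 3.91) do not overlap each other. Of the 12 enrichments that appear in 1 genotype only in replicate 1, 8 lie below the medians of their own libraries, 3.75 (WT) and 3.73 (TKO). Whether these differences in counts exceed chance was not tested.

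**Figure D5:**
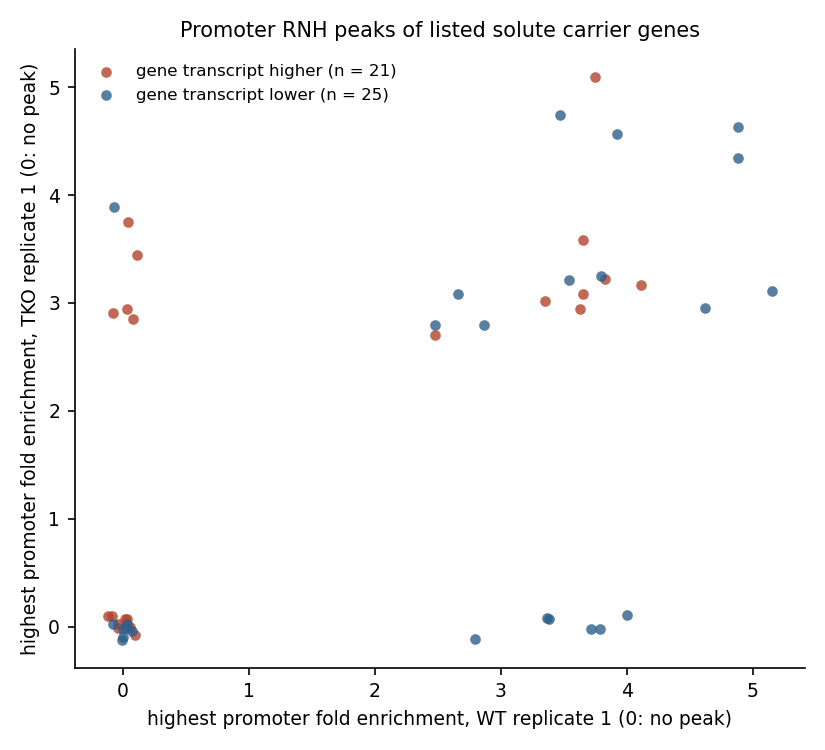
Highest promoter fold enrichment of RNH peaks in WT replicate 1 (horizontal axis) and TKO replicate 1 (vertical axis) for the 46 solute carrier genes with a listed gene transcript; red points have higher and blue points lower gene transcripts in TKO, 0 means no peak and points at 0 are spread slightly for sight. On the axis of TKO-only peaks lie 5 red points and 1 blue one, and on the axis of WT-only peaks 6 blue points and no red one.

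In sequence the listed transcripts resembled the rest of the table. Their median GC content was 45.4%, beside 45.1%, and the motif GGACT, a form of the site that the m6A methyltransferase prefers, occurred on the transcript's strand at a median of 0.901 per kb, beside 0.886. At least 1 GGACT was present in 97.5% of carrier transcripts and 96.1% of all listed ones. Gene transcripts that were higher had a median GC content of 47.3% and those that were lower 43.6%, 13 of the latter from Slc4a4, beside 45.6% and 45.2% over all listed gene transcripts. In promoter windows read from the genome, 250 bases before to 50 after the annotated gene start, the 371 carriers had a median GC content of 56.7%, beside 55.0% over all coding genes. GGGG on either strand was found in 92.2% of them, beside 88.6%. The windows varied more among the carriers. Those with a promoter peak in all 4 libraries had a median GC content of 61.8% and 19 CpG sites, those with a peak in 1 to 3 libraries 61.0% and 16 sites, and those with none 52.0% and 6 sites. Carriers with lower gene transcripts had windows of 62.0% GC and 20 CpG sites at the median, and those with higher ones 55.7% and 12 sites. These splits by peaks and by direction were not made over all coding genes, so they are not shown to be particular to carriers. A motif in these windows is a match of letters and does not show that a factor binds there.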

How the data were processed

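Values came from 6 cheRNA samples, through 1 table, and from 6 MapR peak lists; samples of the other assays were not analysed here. The members and lists were chosen with earlier results of these data known. The submitters' processing notes name build mm10 and the tools DESeq2, MACS2, TopHat2, BWA, bedtools and SAMtools; no versions are given in the sources used here. For cheRNA, the values deposited by the authors are log2 fold changes without p-values, and read depth is unknown. The authors' deposited peak lists, 1 per library, give each peak's fold enrichment (a ratio) and -log10 q.

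Classes were read from name prefixes and positions from GENCODE release M21, in which all 77 names were found. Signs were turned (multiplied by -1). Peaks meeting an MNase-only peak of either genotype by 1 bp were removed. Promoters are annotated starts with 1000 bp on both sides. Where peaks of both replicates overlap, their joint span is a shared region. No test was run. The overlap code was tested on simulated data against bedtools 2.31.1 (Python 3.11.15, pandas 2.3.3). RefSeq promoter sequences were held for 287 of 371 carriers, under 80%, so a check of GC content or motifs over them would be void, and these were counted in windows read from the genome for all 371.

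Named were the 12 highest and 12 lowest gene transcripts, the 6 highest and 6 lowest of other classes, genes with 3 or more transcripts or both directions, the 6 strongest shared promoter regions per genotype, and genes with both a gene transcript and a shared region. Further carriers were named by role after their values were seen. A few list members are not reported here. Alternatives were stricter thresholds, equal list lengths, other overlaps, promoter widths and classes, and leaving out chromosome 11, Slc4a4 or each RNH library.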

Additional observations from a re-analysis of the deposited data

How the results depend on the processing

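The share of solute carrier transcripts higher in TKO, 60.0%, depended on the class: it was 36.5% over gene transcripts and 86.0% over the other classes, and it lay between 54.8% and 67.3% with stricter values, 1 value per gene name, intergenic transcripts within 50 kb, no chromosome 11 or no Slc4a4. The nearness to the whole table did not hold in each setting: at an absolute log2 of at least 2 the share was 59.3% beside 69.4% of all listed transcripts, and without Slc4a4 67.3% beside 60.2%. Leaving out Slc4a4 was added after seeing the data. The 46 carriers with a listed gene transcript became 16 at an absolute log2 of at least 2, and 37 to 54 under other ways of assigning transcripts or without chromosome 11. Carriers with a shared region, 47 in WT and 55 in TKO, became 14 and 19 at a -log10 q of at least 5, and 24 and 26 with lists of equal length. Replacing shared regions by the peaks of 1 library gave 60 to 226 carriers in WT and 77 to 228 in TKO, the higher number from replicate 1. Carriers with a promoter peak, a mean of 116 in WT and 127 in TKO, ranged from 45 to 186 and from 56 to 198 when 1 replicate was left out. With lists of equal length the means were 52.5 and 58.5. In all these settings the TKO number was the higher, except that replicate 1 was tied at 61 with equal lengths.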
